A study of Oncorhynchus mykiss with 6 samples.

Results

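The leukocyte microRNAs miR-142, miR-150, miR-155 and miR-223 were examined in the head kidney of rainbow trout (Oncorhynchus mykiss), where bony fish make most of their blood and immune cells. They were taken by name, as every row of the table whose name carries the number of 1 of these 4 families, whatever the copy letter or arm. This gave 7 of 1381 rows: ssa-miR-142a-5p, ssa-miR-142a-3p, ssa-miR-142b-5p, ssa-miR-142b-3p, ssa-miR-150-5p, ssa-miR-150-3p and ssa-miR-155-5p, written below without the Atlantic salmon prefix ssa. No row analysed here is named miR-223, so this granulocyte and myeloid miRNA has no value below. Small RNA was sequenced from 6 females aged 1 year, 3 heat-treated fish at 24 °C and 3 control fish at 18 °C, with 1 library per fish. How long the fish were held at 24 °C is not stated in the labels.

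A microRNA (miRNA) is cut from a hairpin whose 2 arms, named 5p and 3p, can each give a mature strand that guides repression of target mRNAs. miR-142 is made in nearly all blood lineages and little elsewhere, and in zebrafish and mammals it serves as a general mark of leukocytes. miR-150 accumulates in mature B and T lymphocytes, where in mice it represses the transcription factor Myb. miR-155 is cut from the BIC transcript and is induced in mammalian macrophages, B cells and T cells when they are activated. In the salmonid names used here, miR-142a and miR-142b are separate precursors of the same family.

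Library totals ran from 3753036 to 5156793 counts. Levels are given as CPM, counts set to a common library total after scaling between libraries by TMM (trimmed mean of M-values). Of the 7 rows, 6 had enough counts to be tested, and the exception was miR-150-3p, with 0, 0 and 1 counts in the heat libraries and 2, 1 and 2 in the control libraries. A count of 0 still allows a share of up to 5.82e-05% in heat replicate 1 and 6.65e-05% in heat replicate 2 (3 counts of the library total; counting error only). miR-150 was thus read almost wholly as its 5p arm, in both groups.

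None of the 6 tested rows passed the test between temperatures. The edgeR quasi-likelihood adjusted p lay between 0.63 and 0.96, with 1 row, miR-150-5p, at an unadjusted p under 0.05. DESeq2 and limma on log2(TPM + 1) also called 0 of the 6 after adjustment, with 0 and 1 rows at an unadjusted p under 0.05. The share of all rows at an unadjusted p under 0.05 is given below for edgeR only. Over the whole table edgeR called 1 of 537 rows, or 0.186% (1 higher at 24 °C, and 0, or 0%, lower, where 17 had an unadjusted p under 0.05). With limma 1 of the 537 rows was called higher and 0 lower. DESeq2 called 5, or 0.931%, 2 higher and 3 lower, so a count of 0 among 6 is near the background. The median log2 fold change (24 °C over 18 °C) was 0.25 over the 6 rows and 0.002 over all 537, and 4 of 6 estimates were positive against 270 of 537 (50.3%). The 95% interval of the fold change lay inside 2-fold either way for 4 of the 6, miR-142a-3p, miR-142b-3p, miR-142b-5p and miR-150-5p. The same held for 169 of all 537 rows (31.5%) and for 123 of the 161 rows with a mean of at least 100 CPM.

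**Figure D1:**
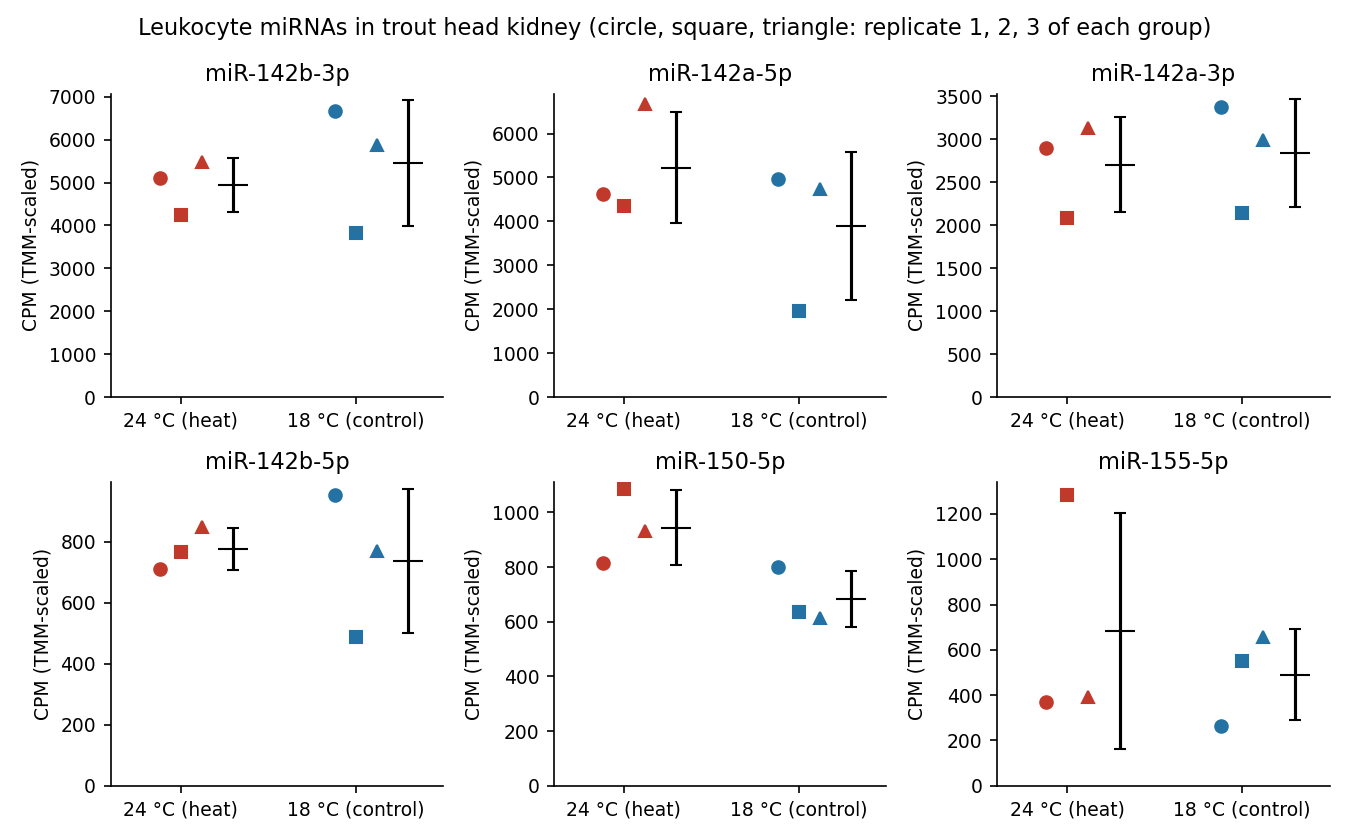
CPM (TMM-scaled, linear axis from 0) of the 6 tested rows in each library, heat (24 °C, red) left of control (18 °C, blue), with the group mean and SD (n = 3 each) as black bars beside the points. The groups overlap in every panel except that of miR-150-5p (where they overlap with DESeq2 size factors or TMM over family sums), and heat replicate 2 stands at 1285 CPM of miR-155-5p while the other 5 libraries lie between 264.6 and 655.8 CPM.

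The pan-leukocyte family miR-142 held most of these counts, and its summed level overlapped between temperatures. Its 4 rows together took 1.34%, 1.08% and 1.70% of the counts in the heat libraries and 1.61%, 0.832% and 1.45% in the control libraries. Heat fish averaged 1.37% ± 0.310 and control fish 1.30% ± 0.409 (SD, n = 3 each), and control replicate 2 was the lowest library. The groups overlapped, and the difference of 0.077 percentage points was smaller than either SD (two-sided exact permutation p = 0.9). Summed as a family and fitted beside all other families, miR-142 had a log2 fold change of 0.04 ± 0.29 (SE; 95% interval -0.64 to 0.72; edgeR adjusted p = 0.97, where 1 of 356 families and single predicted rows, or 0.281%, passed).

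Within the family, miR-142b-3p was the most abundant row over the 6 libraries, at 5102, 4249 and 5489 CPM in heat fish, against 6664, 3819 and 5871 CPM in control fish. Its log2 fold change was -0.14 ± 0.23 (SE). miR-142a-3p, the same arm of the other precursor, had 2900, 2085 and 3132 CPM in heat fish and 3372, 2147 and 2992 CPM in control fish, a log2 fold change of -0.07 ± 0.23. For both rows the second replicate was the lowest of its group, and the group ranges overlapped. miR-142b-5p, the minor arm of miR-142b, had 712.1, 766.3 and 849 CPM in heat fish and 954.6, 487 and 768.4 CPM in control fish (log2 fold change 0.07 ± 0.26). miR-142a-5p had 4624, 4361 and 6675 CPM in heat fish and 4975, 1950 and 4749 CPM in control fish. Its log2 fold change was 0.42 ± 0.37, and the interval from -0.44 to 1.29 allows a decrease, and also an increase of more than 2-fold. Heat replicate 3 was the highest and control replicate 2 the lowest library of this row, 3.42-fold apart. The within-group SD of miR-142a-5p was 0.59 on the log2 scale, larger than that of 147 of the 161 rows with a mean of at least 100 CPM.

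The make-up of the miR-142 counts was then compared, since a share within a family does not depend on how libraries are scaled. This comparison was chosen after the values were seen. miR-142a-5p made up 34.7%, 38.0% and 41.3% of the family in heat libraries, against 31.2%, 23.2% and 33.0% in control libraries. miR-142b-3p made up 38.3%, 37.1% and 34.0% in heat libraries, against 41.7%, 45.4% and 40.8% in control libraries. Every heat library thus held a larger part of miR-142a-5p and a smaller part of miR-142b-3p than every control library. The shares of the rows add up to the family total, so these are not separate results. For comparison, the groups did not overlap in the CPM of 69 of all 537 tested rows (12.8%) and in 9 of 79 arm ratios (11.4%). These measures are unlike a share within a family, for which no such background is given. The mean share of miR-142a-5p was 38.0% ± 3.34 in heat fish and 29.1% ± 5.21 in control fish, and that of miR-142b-3p 36.4% ± 2.19 in heat fish and 42.7% ± 2.44 in control fish (SD, n = 3 each). With 3 fish against 3 the two-sided exact permutation test cannot go below p = 0.1. Groups that are fully apart always give this value, so it adds nothing to the order of the shares. Tested as log2 ratios over the 6 pairs of miR-142 rows, miR-142a-5p over miR-142b-3p differed by 0.63 (0.06 ± 0.21 at 24 °C, -0.57 ± 0.35 at 18 °C; exact permutation p = 0.1, 0.3 after Benjamini-Hochberg adjustment), and it did not pass. Without control replicate 2 the difference in this ratio was 0.42. The shares of miR-142a-3p (19.8% ± 1.80 at 24 °C, 22.5% ± 2.66 at 18 °C) and miR-142b-5p (5.76% ± 0.802 at 24 °C, 5.71% ± 0.327 at 18 °C) overlapped between groups.

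**Figure D2:**
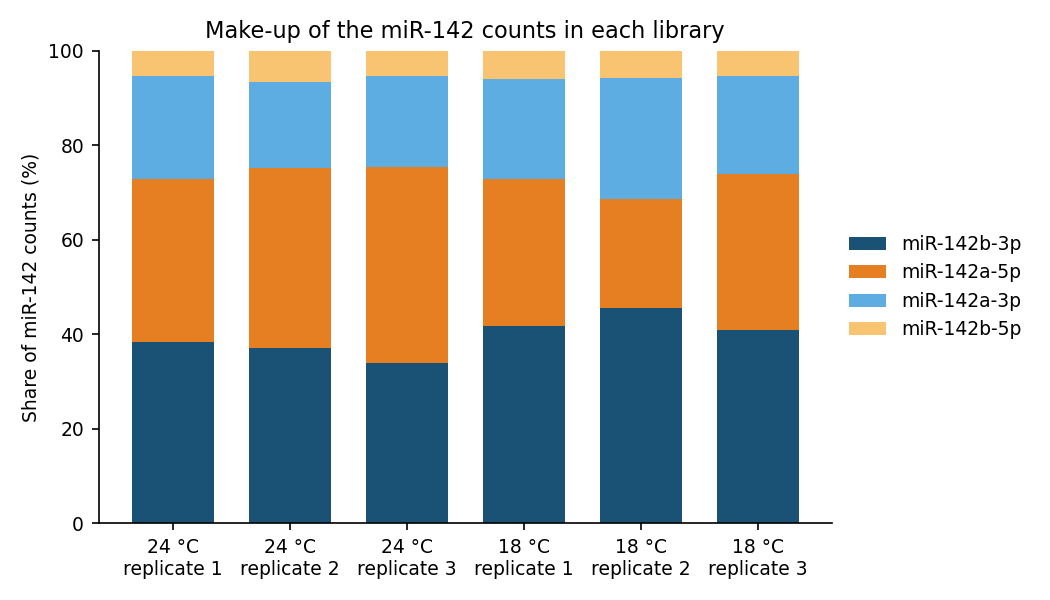
Share of the miR-142 counts in each of the 4 rows (percent, stacked to the family total), 1 bar per library, heat libraries left of control libraries. The miR-142a-5p segment spans 34.7% to 41.3% of the family in the heat libraries and 23.2% to 33.0% in the control libraries.

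The 2 precursors favoured opposite arms. In miR-142b the 3p arm was the more abundant in all 6 libraries, with a log2 ratio of 5p to 3p counts of -2.67 ± 0.19 in heat fish and -2.90 ± 0.09 in control fish (SD, n = 3 each). In miR-142a the 5p arm was the more abundant in 5 of 6 libraries, with log2 ratios of 0.67, 1.06 and 1.09 in heat fish, against 0.56, -0.14 and 0.67 in control fish. Only in control replicate 2 did the 3p arm of miR-142a exceed the 5p arm. The log2 arm ratio of miR-142a was above that of miR-142b by 3.44 ± 0.33 on average, and by at least 2.83 in each of the 6 fish. This contrast was chosen after the values were seen. With the same sign in all 6 fish, a paired exact sign-flip permutation always gives its smallest p, 0.031. That p is thus no support, and the difference is given as a description. Among the 14 families with 2 or more precursors in the same comparison, 2 held precursors that favoured opposite arms in all 6 libraries, miR-15 and miR-7132, so miR-142 missed that mark by 1 library. How reads that match both precursors were shared between the rows is not given, so the split between miR-142a and miR-142b is uncertain.

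The arm ratio passed the test between temperatures in neither precursor. For miR-142a it was higher in every heat library than in every control library, with a difference of 0.58 ± 0.30 on the log2 scale (SE; limma adjusted p = 0.53 over 79 precursors). The gap between heat replicate 1 (0.673) and control replicate 3 (0.667) was very narrow. Across the 79 precursors, 9 (11.4%) had groups that did not overlap and 0 (0%) passed the test, with 7 (8.86%) at an unadjusted p under 0.05. Neither miR-142 precursor was among those 7. Without control replicate 2 the difference for miR-142a was 0.33, over 1.5 times smaller on that scale. The ratio of miR-142b differed by 0.23 ± 0.23 (limma adjusted p = 0.92), and by 0.14 without heat replicate 2.

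**Figure D3:**
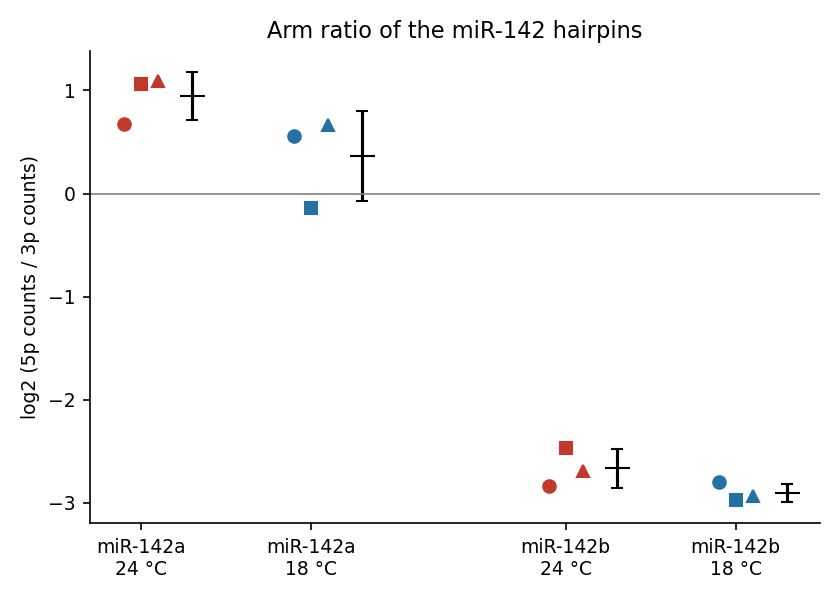
Log2 ratio of 5p to 3p counts of the 2 miR-142 hairpins in each library, heat (red) left of control (blue) for each hairpin, with the mean and SD as black bars (n = 3 each); 0 marks equal counts. miR-142a lies above 0 in all libraries except control replicate 2, and miR-142b lies below -2.4 in all 6.

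The lymphocyte miRNA miR-150-5p was the 1 tested row of these families whose heat libraries all lay above the control libraries, under TMM over rows or library totals and not under the other scalings below. It had 813.8, 1086 and 932.8 CPM in heat fish, against 800.4, 634.7 and 615.1 CPM in control fish. The gap between heat replicate 1 and control replicate 1 was narrow. The fitted fold was 1.38 (95% interval 1.003 to 1.90), with a log2 fold change of 0.47 ± 0.20 (SE), an unadjusted p of 0.048 and an edgeR adjusted p of 0.63. Of all 537 rows, 69 (12.8%) had groups that did not overlap, 37 (6.89%) had every heat library above every control library, and 35 (6.52%) had an unadjusted p under 0.05. miR-150-5p varied little among fish of a group, with a within-group SD of 0.21 on the log2 scale, and 45 of the 161 rows with a mean of at least 100 CPM varied less.

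The separation of the groups in miR-150-5p depended on the scaling. With library totals the heat libraries (818, 1023 and 980.9 CPM) again lay above the control libraries (805.8, 628.6 and 619.7 CPM). With DESeq2 size factors heat replicate 1 (807.2 CPM) fell below control replicate 1 (839.8 CPM), and the same happened when TMM was computed over family sums (804.7 CPM in heat replicate 1, 878.6 CPM in control replicate 1). Summed as a family, miR-150 had a log2 fold change of 0.42 ± 0.23 (95% interval -0.13 to 0.96; edgeR adjusted p = 0.65), which was 0.27 without heat replicate 2. In bulk tissue, more lymphocytes and more miR-150 per lymphocyte cannot be told apart.

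Summed levels of miRNAs known from other cell types were set beside this result. The striated muscle families (miR-1, miR-133, miR-206 and miR-499, 11 rows; no row of miR-208 was analysed here) summed to between 1137 and 2326 CPM in heat fish and between 411.1 and 725.1 CPM in control fish, with the groups fully apart. Of their 6 tested rows 5 had a positive log2 fold change (median 1.64), and 1 of them, miR-499a-5p, was the only row edgeR called in the whole table. The red cell hairpin miR-144 (2 rows; no row of miR-451 was analysed here) ran from 405.4 to 3052 CPM in heat fish and from 382.7 to 869.9 CPM in control fish. The endothelial miR-126 (2 rows) ran from 87082 to 101990 CPM in heat and from 81200 to 107154 CPM in control fish, and the stromal families (8 rows) from 46408 to 69139 CPM in heat and from 55782 to 80615 CPM in control fish. The epithelial families (14 rows; no row of miR-141 was analysed here) ran from 404.6 to 435.3 CPM in heat and from 434.5 to 838.5 CPM in control fish, and 0 of their 7 tested rows had a positive log2 fold change (median -0.91). The nephron families (8 rows) ran from 1763 to 2548 CPM in heat and from 2115 to 2993 CPM in control fish. Even so, 5 of their 6 tested rows had a positive log2 fold change (median 0.34). The same held for 2 of 2 red cell rows (median 0.84), 1 of 2 endothelial rows (-0.03) and 3 of 8 stromal rows (-0.14). Over all 537 rows 270 (50.3%) were positive. No row of these lists was at 0 in all libraries. Their part in the result for miR-150-5p was not tested.

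**Figure D4:**
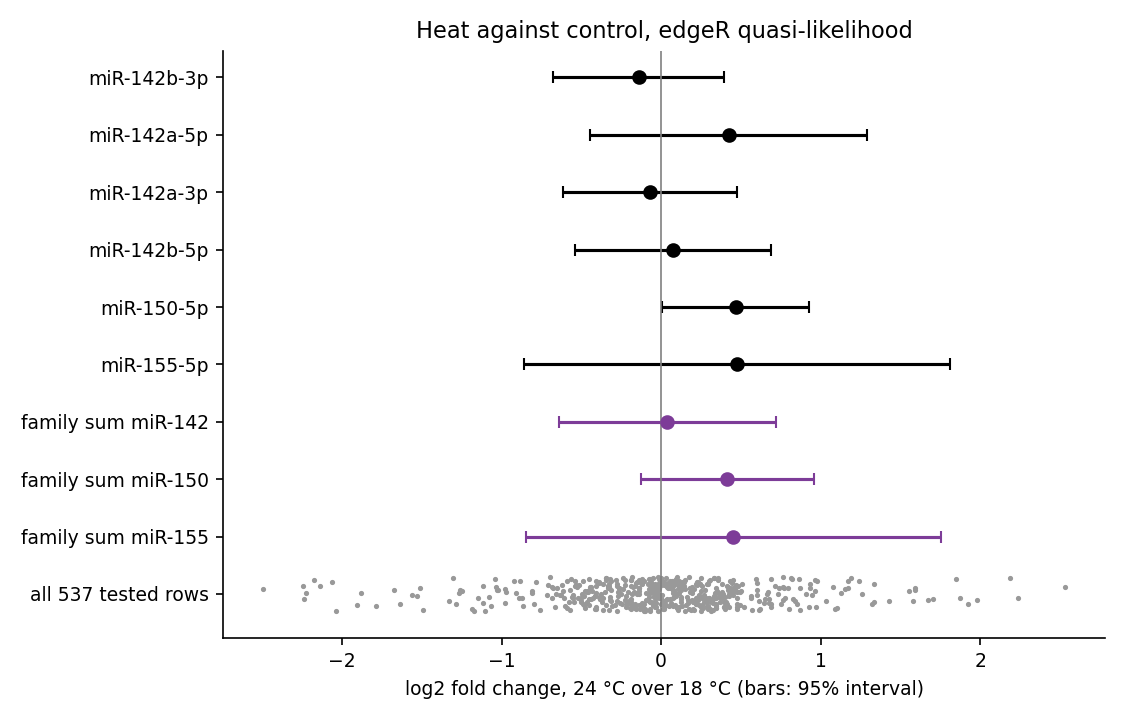
Log2 fold change of heat over control with its 95% interval for the 6 tested rows (black) and the 3 family sums (purple), above the estimates of all 537 tested rows (grey points, spread vertically for view only). The interval of miR-150-5p starts just above 0 (0.004) and that of miR-155-5p spans -0.86 to 1.81.

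The activation-linked miR-155-5p was the most variable of these rows. It had 369.1, 1285 and 393.5 CPM in heat fish, against 264.6, 551.8 and 655.8 CPM in control fish, a 4.85-fold range over the 6 libraries. Heat replicate 2 was far above the other 2 heat fish, which lay below control replicates 2 and 3. Counting error was small beside this spread: the share of counts was 0.121% in heat replicate 2 (5461 counts; exact binomial 95% interval 0.118% to 0.124%) and 0.0371% in heat replicate 1 (1913 counts; 0.0355% to 0.0388%). The within-group SD was 0.87 on the log2 scale, against a median of 0.28 over the 161 rows with a mean of at least 100 CPM, of which 150 varied less. Its log2 fold change of 0.48 ± 0.57 (SE) had a 95% interval of -0.86 to 1.81 (edgeR adjusted p = 0.89). Without heat replicate 2 its sign turned, to -0.36 (edgeR adjusted p = 0.87), so the data give no direction for miR-155-5p.

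Levels of the 3 families were compared within each library. miR-142 exceeded miR-150 in all 6 libraries, with a log2 ratio of 3.85 ± 0.39 in heat fish and 4.20 ± 0.42 in control fish (SD, n = 3 each). It exceeded miR-155 by a log2 ratio of 4.56 ± 1.22 in heat fish and 4.77 ± 1.03 in control fish. The log2 ratio of miR-150 to miR-155 was 1.14, -0.24 and 1.25 in heat fish, against 1.60, 0.20 and -0.09 in control fish, so each group had 1 fish with more miR-155 than miR-150. None of the 3 ratios differed between temperatures beyond the spread between fish. The differences were -0.35 for miR-142 over miR-150 (exact permutation p = 0.4), -0.20 for miR-142 over miR-155 (exact permutation p = 0.9) and 0.15 for miR-150 over miR-155 (exact permutation p = 1), each with an adjusted p of 1 over the 3 pairs. The first of these was -0.12 without heat replicate 2, -0.17 without control replicate 3, -0.58 without control replicate 2 and -0.58 with only the most abundant row of each family. Counts of different miRNAs also depend on how well each is captured in the library, which was not measured here.

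By mean level over the 6 libraries the rows ranked miR-142b-3p (5199 CPM), miR-142a-5p (4556), miR-142a-3p (2771), miR-150-5p (813.8), miR-142b-5p (756.2), miR-155-5p (586.6) and miR-150-3p (0.22 CPM). The step from miR-142a-3p to miR-150-5p, a log2 difference of 1.77 ± 0.46 (SD over 6 fish), held in all 6 libraries, as did the step from miR-155-5p to miR-150-3p. The order was read from these same levels, so its steps are given as a description with no test. The other 4 steps were turned round in 1 or 2 libraries: miR-142b-3p was above miR-142a-5p in 4 of 6, miR-142a-5p above miR-142a-3p in 5, miR-150-5p above miR-142b-5p in 4 and miR-142b-5p above miR-155-5p in 4. The order of the group means within 2 neighbouring pairs also differed between temperatures. miR-142a-5p averaged more than miR-142b-3p in heat fish (5220 and 4947 CPM) and less in control fish (3891 and 5451 CPM), and miR-150-5p averaged more than miR-142b-5p in heat fish (944.2 and 775.8 CPM) and less in control fish (683.4 and 736.6 CPM). Heat replicate 1 (miR-142a-5p 4624, miR-142b-3p 5102 CPM) and control replicate 2 (miR-150-5p 634.7, miR-142b-5p 487 CPM) went against their group means.

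The rows also differed in which fish stood high or low. Likeness was measured as the root mean square difference of centred log2 CPM over the 6 libraries, where 0 means the same pattern. The 3p arms of miR-142a and miR-142b were the closest of the 15 pairs of tested rows (0.09), and the 6 pairs among miR-142 rows ran up to 0.41. miR-150-5p lay 0.30 from miR-142b-5p, 0.41 from miR-142b-3p, 0.42 from miR-142a-3p and 0.47 from miR-142a-5p. Among miR-142 rows, the pairs with miR-142a-5p lay at 0.30 to 0.41 and the other pairs at 0.09 to 0.22. The median distance from miR-150-5p to the other annotated miRNAs averaging 100 CPM or more was 0.37. miR-142b-5p was nearer to miR-150-5p than this median, and the other miR-142 rows were farther. Whether miR-150-5p stands apart from the miR-142 rows was not tested. Pairs with miR-155-5p ran from 0.71 to 1.002, and miR-150-5p with miR-155-5p was the nearest of them. The measure grows with a row's own spread, which was largest for miR-155-5p, so the value of 0.71 is not read as likeness. Control replicate 2 was the lowest library for 3 of the 6 rows, miR-142a-5p, miR-142b-3p and miR-142b-5p, and it was the lowest for 33 of the 161 rows (20.5%) with a mean of at least 100 CPM. Control replicate 1 was the highest for miR-142a-3p, miR-142b-3p and miR-142b-5p, and for 20 of those 161 rows (12.4%). These members all belong to the miR-142 family, so they are not separate cases. Heat replicate 2 was the highest for miR-150-5p and miR-155-5p and the lowest for miR-142a-3p.

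**Figure D5:**
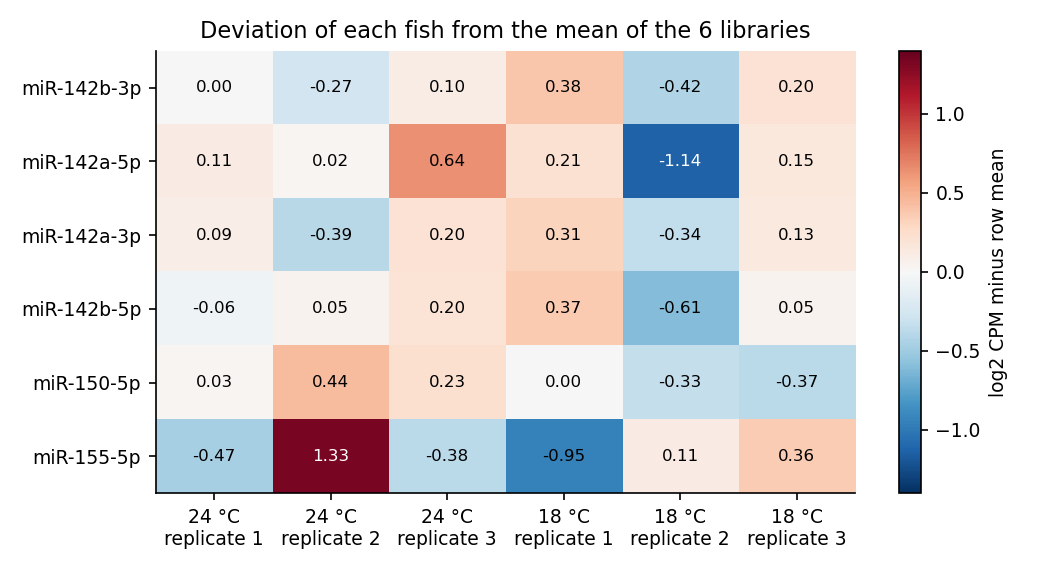
Deviation of each library from the row's mean over the 6 libraries (log2 CPM, red above and blue below the mean, value printed in each cell), rows in order of the miR-142 members, miR-150-5p and miR-155-5p, heat libraries left of control libraries. miR-142a-5p is lowest in control replicate 2 (-1.14) and miR-155-5p highest in heat replicate 2 (1.33), where both miR-142 3p arms lie below their means.

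Among the other annotated miRNAs averaging 100 CPM or more, miR-199a-5p, known from mesenchymal cells, was the nearest in pattern to 3 of the miR-142 rows, at 0.12 for miR-142a-3p, 0.10 for miR-142b-3p and 0.14 for miR-142b-5p. It had 8280, 7390 and 8962 CPM in heat fish and 9311, 6223 and 8764 CPM in control fish. Since miR-199a-5p was picked for its nearness in these same libraries, shared low libraries follow from the choice. It was lowest in the second replicate of each group, as both miR-142 3p arms were, whereas miR-142b-5p was lowest in replicate 1 among heat fish. The summed stromal families, which include miR-199, did not share this pattern in heat fish, where replicate 2 was the highest (69139 CPM). Among control fish their sum was lowest in replicate 2 (55782 CPM). Most counts of that sum were of miR-143 (1316252, against 335973 of miR-199), so it largely follows the miR-143 family. Next came miR-30c-5p for both 3p arms (0.18 for miR-142a-3p and 0.15 for miR-142b-3p) and miR-101a-3p for miR-142b-5p (0.18). miR-142a-5p was nearest to miR-101b-3p (0.25) and miR-101a-5p (0.35), and miR-150-5p to miR-101a-5p (0.15) and miR-101a-3p (0.17). The miR-101 family is known in mammals to repress the histone methyltransferase EZH2. miR-101a-5p, the minor arm, had 170.2, 200.2 and 186.4 CPM in heat fish and 153.02, 108.2 and 147.2 CPM in control fish. Its groups were apart under TMM over rows, with a log2 fold change of 0.45 ± 0.23 and an edgeR adjusted p of 0.63. It was picked for its nearness to miR-150-5p in these same libraries, so a like order and fold change follow from the choice. The abundant arm, miR-101a-3p, had 21044, 21615 and 23501 CPM in heat fish and 21145, 15323 and 18278 CPM in control fish. The groups of miR-101a-3p overlapped (edgeR adjusted p = 0.69). The nearest rows to miR-155-5p were farther off, miR-146a-3p (0.54) and miR-148a-5p (0.55), against a median of 0.75 over all candidates. That median was 0.62 for miR-142a-5p and between 0.37 and 0.41 for the other tested members. It too grows with a row's own spread.

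Other families tied to immune cells and inflammation (miR-21, miR-146, miR-181, miR-221, miR-222, miR-29, miR-462 and miR-731) had 42 rows, of which 37 could be tested and 0 were called by edgeR or DESeq2 in either direction, with 4 at an unadjusted p under 0.05 in each. Their median log2 fold change was -0.004, with 18 of 37 positive. Over all 537 rows edgeR called 1 (0.186%) and DESeq2 5 (0.931%), and 35 (6.52%) had an unadjusted edgeR p under 0.05. The matching unadjusted share for DESeq2 is not given here. The 42 rows of the list summed to 246937, 295261 and 224965 CPM in heat fish and 247985, 256865 and 262495 CPM in control fish. Heat replicate 2, the fish with the most miR-155-5p, was thus also the highest here. That library was the highest for 36 of the 161 rows (22.4%) with a mean of at least 100 CPM, more than any other library. Its miR-21b-5p (99110 CPM) and miR-146a-5p (85045 CPM), the most abundant rows within the summed list, were the highest of the 6 libraries under TMM. miR-146a-5p, which in mammals restrains signalling through TRAF6, had nearly as much in control replicate 3 (83810 CPM). The TMM factor was 0.942 for heat replicate 2 and 1.007 for control replicate 3, and with library totals control replicate 3 was the higher of these libraries. The third most abundant row of this list, miR-181a-5p, known from lymphocyte development, had 31800 CPM in heat replicate 2 and between 29626 and 42843 CPM in the others.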

How the data were processed

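The read counts per miRNA deposited by the authors are whole numbers for 1381 rows, per the file headers. The deposited TPM values are those counts over the library total, with no length term. Per the submitters' processing notes, reads were handled with Bowtie. Its version, the build and the treatment of multi-mapped reads are not stated there. Intervals of shares and floors cover counting error only.

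The test on counts was edgeR 4.0.16 under R 4.3.3 (filterByExpr, minimum count 10 and minimum total 15; TMM; robust quasi-likelihood fit; Benjamini-Hochberg adjustment over 537 rows; threshold 0.05), again after summing rows by family number, and with DESeq2 1.42.0. Arm ratios (0.5 added to each count, mean of at least 10 counts per arm) were tested with limma 3.58.1. Standard errors are the log2 fold change over the root of the F statistic. Every row of the 4 families is named, with the 2 nearest annotated rows in pattern per tested member and the 3 most abundant rows of the immune-linked list. The fits were also run on simulated data, whose outcome is not given here, and no result above rests on it. Members, lists and rules were chosen with earlier results of these data known. The replicate is the fish, and every 2 libraries differed beyond sampling noise (chi-square over its degrees of freedom at least 117). Alternatives were other scalings, filters, tools, added counts, a replicate block and each library left out. Figures were drawn with matplotlib 3.10.9.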

Additional observations from a re-analysis of the deposited data

How the results depend on the processing

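None of the alternatives called a member row, a family or an arm ratio of miR-142. The exact permutation tests of family ratios and of ratios among miR-142 rows could not pass 0.05 at this size in any setting, so they say nothing about stability. Over all rows, 1 miRNA was called higher at 24 °C, against 2 with DESeq2, 0 under the replicate block and between 0 and 1 when a library was left out. Lower calls numbered 0, against 3 with DESeq2 and between 0 and 1 when a library was left out. The log2 fold change of miR-150-5p stayed positive throughout (0.34 to 0.59), that of the miR-150 family ran from 0.27 to 0.61 and that of miR-142a-5p from 0.03 to 0.64. The arm ratio difference ran from 0.33 to 0.73 for miR-142a and from 0.14 to 0.32 for miR-142b. Leaving out a library turned the sign of values that were near 0 or rested on 1 fish. The log2 fold change then ran from -0.31 to 0.074 for miR-142a-3p, from -0.41 to 0.029 for miR-142b-3p, from -0.22 to 0.30 for miR-142b-5p, from -0.36 to 0.75 for miR-155-5p, from -0.26 to 0.30 for the miR-142 family and from -0.44 to 0.74 for the miR-155 family. The difference in log2 ratio ran from -0.58 to -0.12 for miR-142 over miR-150, from -0.62 to 0.50 for miR-142 over miR-155 and from -0.19 to 0.66 for miR-150 over miR-155. The difference in share of counts ran from -0.11 to 0.27 percentage points for all 7 rows, from -0.16 to 0.23 for miR-142 and from -0.0099 to 0.032 for miR-155. Deviations of same-numbered heat and control fish were not positively correlated (-0.06, -0.19 and -0.15), and 0 of 3 heat libraries correlated best with their own number, so the numbers were not taken as pairs; under the block miR-150-5p had an adjusted p of 0.87. With 3 fish per group and the spread seen here, the interval of miR-155-5p allows a change of more than 3-fold upward.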
